A study of Homo sapiens with 8 samples.

Results

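Integrin beta-1 is the common chain of a family of cell-surface receptors, and the mRNAs of this chain and of 9 alpha chains that can pair with it were followed in Alexander1 cells, an established human hepatocellular carcinoma line. The 10 genes, ITGB1, ITGA1, ITGA2, ITGA3, ITGA4, ITGA5, ITGA6, ITGA7, ITGA9 and ITGA10, were taken by gene identifier from a table of 58206 genes. The rule that lists them uses no measured value, but it was written with earlier results of these data known. Of the 10, 8 passed the filter on low counts and were tested among 14289 genes. ITGA4 and ITGA9 did not pass it. The comparison was between 2 groups of 4 libraries. The parental line, labelled wt (Axin1 -), has an Axin1 that lacks its GSK3-binding region, and according to the labels its Wnt pathway is always active. The other group, labelled Axin1 +, is a stable derivative of the same line given Axin1 from a plasmid by retroviral transfer and selected as clones with hygromycin B. How many clones were used is not given. The same medium with serum served both groups, and the labels do not say whether the 4 libraries of a group came from separate cultures, so p-values measure only the spread between these libraries.

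Integrins are heterodimers of an alpha and a beta chain that link the extracellular matrix to the actin cytoskeleton at focal adhesions. The alpha chain sets the ligand. With ITGB1, the products of ITGA1, ITGA2 and ITGA10 bind collagens, those of ITGA3, ITGA6 and ITGA7 bind laminins, that of ITGA5 binds fibronectin, and those of ITGA4 and ITGA9 bind fibronectin splice forms, VCAM1 or other matrix proteins. Chains pair in the endoplasmic reticulum before they reach the surface, and the receptors are then taken up by endocytosis and recycled or degraded. The series, by its title, concerns Wnt signalling, focal adhesions and integrin beta-1 uptake, and the question here was which of these receptor mRNAs differed between the groups.

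Parental libraries held 11232951 to 15263761 counts and Axin1+ libraries 12372436 to 26400782. AXIN1 itself was not higher in the libraries labelled Axin1+, with 37.7 to 48.2 CPM (counts scaled to a common library total, with TMM factors) against 47.4 to 55.3 CPM in the parental ones (log2 fold change -0.21, edgeR adjusted p = 0.267), so the directions below rest on the labels and these libraries are called restored-labelled. Hepatocyte markers summed to 23591 to 27490 CPM in the parental and 18225 to 21774 CPM in the restored-labelled libraries. All 10 reached 1 CPM in some library, though TTR was low, at 1.42 to 5.35 CPM and 4.81 to 21.2 CPM. The keratins KRT8 and KRT18 were high, while EPCAM stayed under 1 CPM. Of markers of other cell types, 6 of 8 fibroblast, 4 of 5 endothelial (CDH5, VWF, KDR, TEK) and 5 of 6 leukocyte genes stayed under 1 CPM everywhere. The summed endothelial level was 4.58 to 6.77 CPM in the parental and 34.1 to 58.5 CPM in the restored-labelled libraries, nearly all of it PECAM1, and its part in the results was not tested. The summed fibroblast level was 2.71 to 3.29 CPM and 1.38 to 4.84 CPM, and the summed leukocyte level, nearly all LYZ, 421 to 949 CPM and 672 to 919.6 CPM. Libraries with replicate number 1 stood apart. Restored replicate 1 had 13.8 CPM of ALB against 445 to 681 CPM in the others of its label, and KRT19 reached 16.9 CPM in parental and 34.4 CPM in restored replicate 1 against at most 3.99 CPM elsewhere. In bulk RNA, fewer cells with a transcript and less of it per cell cannot be told apart.

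Of the 8 tested members, 5 rose in the restored-labelled libraries (ITGB1, ITGA6, ITGA3, ITGA1 and ITGA10), 0 fell, and ITGA5, ITGA2 and ITGA7 did not pass the test (edgeR's quasi-likelihood test, Benjamini-Hochberg adjusted p under 0.05 over all genes tested). Without both libraries numbered 1, an alternative added after seeing the data, 5 rose and 1, ITGA2, fell, where 32.3% of the 14332 genes then tested were called. Among all tested genes in the full set 19.2% were called in either direction, and 10.4% were called as higher. DESeq2 and limma-voom also called 5 members higher and 0 lower, and 5 members had an unadjusted p under 0.05. The groups did not overlap in 5 of the 8 tested members, where 23.9% of all tested genes had separated groups. The median log2 fold change was 1.09 over the 8 tested members and 0.0026 over all tested genes.

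**Figure D1:**
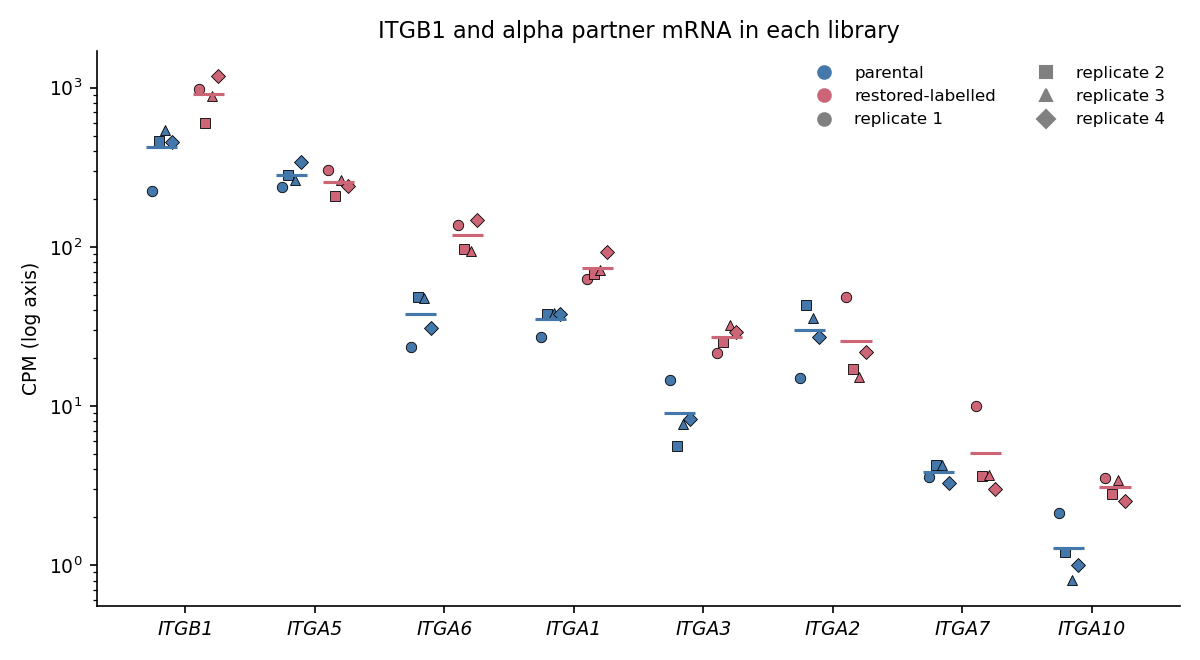
CPM on a log axis of the 8 tested genes, 1 point per library, with the marker shape giving the replicate number, the colour the group and the short line the mean of 4 libraries. ITGB1, ITGA6, ITGA1, ITGA3 and ITGA10 have separated groups, while ITGA5, ITGA2 and ITGA7 overlap.

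Promoter sequences were compared because several members rose together. RefSeq (GRCh38.p14) gave 9 windows, of 250 bases before to 50 after a gene start, for 7 of the 10 members, and ITGA3, ITGA7 and ITGA9 were not matched. The 4 windows printed 5′ to 3′ on the gene's strand belong to ITGB1 and to the most abundant alpha chains that rose (ITGA6, ITGA1) or did not pass (ITGA5). Capitals mark matches, on either strand, to the core letters of 4 factor families, CTTTGA (TCF/LEF), GGAATG (TEAD), TGANTCA (AP-1) and GGGCGG (Sp1), which do not overlap each other here.
ITGB1, chr10:32958181-32958480, minus strand: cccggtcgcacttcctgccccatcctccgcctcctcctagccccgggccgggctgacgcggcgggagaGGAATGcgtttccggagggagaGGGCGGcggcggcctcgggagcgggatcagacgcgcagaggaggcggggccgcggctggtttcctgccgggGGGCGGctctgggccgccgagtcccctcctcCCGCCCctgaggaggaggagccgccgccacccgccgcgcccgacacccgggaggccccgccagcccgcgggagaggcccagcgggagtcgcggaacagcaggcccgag
ITGA6, chr2:172427086-172427385, plus strand: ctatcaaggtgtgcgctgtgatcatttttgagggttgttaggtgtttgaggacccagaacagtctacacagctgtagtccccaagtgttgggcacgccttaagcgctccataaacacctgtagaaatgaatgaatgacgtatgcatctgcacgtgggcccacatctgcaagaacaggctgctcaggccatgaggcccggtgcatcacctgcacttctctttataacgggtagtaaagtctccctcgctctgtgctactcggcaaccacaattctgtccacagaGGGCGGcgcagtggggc
ITGA1, chr5:52787666-52787965, plus strand: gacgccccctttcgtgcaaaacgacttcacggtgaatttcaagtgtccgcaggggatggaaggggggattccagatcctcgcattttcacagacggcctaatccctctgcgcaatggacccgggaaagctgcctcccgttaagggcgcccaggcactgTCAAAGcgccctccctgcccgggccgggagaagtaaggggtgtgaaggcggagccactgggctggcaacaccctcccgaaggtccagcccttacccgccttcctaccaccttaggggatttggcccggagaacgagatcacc
ITGA5, chr12:54419217-54419516, minus strand: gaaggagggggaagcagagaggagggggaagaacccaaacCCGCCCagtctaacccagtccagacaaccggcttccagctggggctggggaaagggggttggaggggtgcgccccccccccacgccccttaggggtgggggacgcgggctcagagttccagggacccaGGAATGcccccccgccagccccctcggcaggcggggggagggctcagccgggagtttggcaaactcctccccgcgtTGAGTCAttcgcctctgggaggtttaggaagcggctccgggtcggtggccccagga

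The TCF/LEF letters occurred in 1 of the 9 windows, that of ITGA1, as TCAAAG on the opposite strand with its first base 92 bases before the start (-92), and in 12.9% of all 35116 promoters in the table. TEAD letters were in the printed windows of ITGB1 (first base at -182) and ITGA5 (at -82) and in that of ITGA10, against 14% of all promoters. The ITGA5 window held the AP-1 letters TGAGTCA at -6, found in 7.71% of all promoters. Sp1 letters were in every printed window except that of ITGA1, with 3 matches in ITGB1, and in 45% of all promoters. Of the windows not printed, those of ITGA2 and the second of ITGA6 held them. Those of ITGA10 and ITGA4 and the second of ITGB1 did not. The GC content of the ITGB1 window was 78.3%, that of ITGA6 53%, ITGA1 61.7% and ITGA5 69.3%, beside a median of 58.7%. The second windows of ITGB1 and ITGA6, not printed, lay on the other side of that median, at 40.7% and 72% GC. That of ITGA6 held 3 Sp1 matches against 1 in the printed window. The ITGA6 windows overlap, and the match in the printed one (at 34) is among those 3 (at -217). These matches describe letters in a window only.

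ITGB1 (ENSG00000150093) encodes the shared beta-1 chain and is annotated on chromosome 10 at 32900319 to 33005792, minus strand (GRCh38, as are all gene positions here). Parental replicates 1 to 4 had 224, 466, 544 and 455 CPM, and restored-labelled replicates 1 to 4 had 984, 602, 883 and 1185 CPM. Every restored-labelled library lay above every parental one, with parental replicate 1 low in its group and restored replicate 2 closest to the parental range. The fold difference was 2.16, or 1.11 on the log2 scale (SE 0.27, 95% confidence interval 0.51 to 1.71, edgeR adjusted p = 0.0178). Permuting the labels in all 70 ways gave an exact p of 0.0286 (two-sided), the smallest that 4 against 4 libraries can give. Any gene with separated groups gives this value, and 23.9% of all tested genes had separated groups. Without restored replicate 4, the library with the most ITGB1, the log2 fold change was 0.96 and the adjusted p 0.0610, in a range of 2.7e-05 to 0.0610 over all alternatives. An exon of ITGB1 shares 42 bases with ITGB1-DT on the opposite strand (4.53 to 12.7 CPM). The sources used here do not say if counting took strand into account.

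The laminin-binding chains came next. ITGA6 (ENSG00000091409, chromosome 2, plus strand, 172427354 to 172506282) stood at 23.4, 48.5, 47.6 and 30.9 CPM in the parental group and at 137, 96.7, 93.8 and 148 CPM in the restored-labelled group, in replicate order as throughout. The lowest restored-labelled value was well above the highest parental one, and ITGA6 showed the largest fold of the tested members, 3.16 (log2 fold change 1.66, SE 0.25, 95% confidence interval 1.12 to 2.20, edgeR adjusted p = 0.0014). The product of ITGA6 also pairs with that of ITGB4 in hemidesmosomes. ITGB4 had 39.2, 26.7, 23.7 and 15.96 CPM in the parental libraries and 49.5, 9.49, 11.8 and 10.5 CPM in the restored-labelled ones. It did not pass the test (log2 fold change -0.36, SE 0.50, edgeR adjusted p = 0.650). Without both libraries numbered 1 the log2 fold change of ITGB4 was -1.06 (edgeR adjusted p = 0.0014). That fit was added after seeing the data and leaves out the library with the most ITGB4 in each group. Per kilobase of exon, the ratio of ITGA6 to ITGB4 was 0.619 to 2.08 in the parental and 2.87 to 14.7 in the restored-labelled libraries, with restored replicate 1 the lowest of its label.

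ITGA3 (ENSG00000005884, chromosome 17, plus strand, 50055968 to 50090481) encodes the alpha chain of an epithelial laminin receptor. Its values were 14.6, 5.62, 7.66 and 8.23 CPM in the parental and 21.5, 25.3, 32.4 and 29.2 CPM in the restored-labelled libraries. Parental replicate 1 was the highest of its group, and restored replicate 1 the lowest of its own, so the gap between the groups was narrowest there. The fold was 3.01 (log2 fold change 1.59, SE 0.27, 95% confidence interval 1.00 to 2.18, edgeR adjusted p = 0.0028), and without both libraries numbered 1 the log2 fold change was 2.02. ITGA7 (ENSG00000135424, chromosome 12, minus strand, 55684568 to 55716043), best known as the laminin receptor chain of muscle, was low. It had 3.56, 4.27, 4.28 and 3.29 CPM in the parental libraries and 9.97, 3.63, 3.70 and 3.01 CPM in the restored-labelled ones. Restored replicate 1 alone was high, and the other 3 restored-labelled libraries lay within or just under the parental range. The log2 fold change of 0.41 (95% confidence interval -0.41 to 1.23, edgeR adjusted p = 0.472) turned to -0.16 without that library (adjusted p = 0.652). Exons of ITGA7 share 44 bases with METTL7B on the opposite strand, which was more abundant, at 38.1 to 101 CPM.

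Among the collagen-binding chains, ITGA1 and ITGA2 lie close together on the plus strand of chromosome 5. ITGA1 (ENSG00000213949, 52787896 to 52959210), which encodes a chain with a preference for basement membrane collagen, had 27.0, 37.8, 38.5 and 37.9 CPM in the parental and 63.2, 67.4, 72.04 and 92.3 CPM in the restored-labelled libraries. The groups were far apart, with parental replicate 1 below the other 3 parental libraries, which were nearly equal. The fold was 2.09 (log2 fold change 1.06, SE 0.16, 95% confidence interval 0.71 to 1.42, edgeR adjusted p = 0.0016). Exons of ITGA1 share 475 bases with PELO on the same strand, a gene at 27.01 to 43.3 CPM that did not pass the test (log2 fold change 0.27, edgeR adjusted p = 0.265).

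ITGA2 (ENSG00000164171, 52989326 to 53094779), the other main collagen receptor chain of epithelia, behaved otherwise. Parental replicates 1 to 4 had 14.95, 42.9, 35.8 and 27.0 CPM, and restored-labelled replicates 1 to 4 had 48.7, 17.01, 15.3 and 21.7 CPM. The groups overlapped because the libraries numbered 1 lay on the far side in both, lowest in the parental and highest in the restored-labelled group. On the log2 scale the difference was -0.23 (SE 0.39, 95% confidence interval -1.08 to 0.63, edgeR adjusted p = 0.721). Without both libraries numbered 1 it was -0.96 with an adjusted p of 0.0021, and without either alone it was -0.45 or -0.74 and did not pass. The ratio of ITGA1 to ITGA2 per kilobase of exon was 0.376 to 0.768 in the parental libraries, 0.553 in restored replicate 1 and 1.69 to 2.003 in the other 3. ITGA10 (ENSG00000143127, chromosome 1, minus strand, 145891208 to 145910189), a collagen receptor chain known from cartilage, was scarce. It had 2.14, 1.22, 0.802 and 1.002 CPM, on 9 to 24 counts, in the parental libraries and 3.55, 2.81, 3.45 and 2.54 CPM, on 34 to 99 counts, in the restored-labelled ones. The groups did not overlap, and the fold was 2.40 (log2 fold change 1.26, SE 0.33, 95% confidence interval 0.54 to 1.99, edgeR adjusted p = 0.0224). That call was lost without parental replicate 2, 3 or 4 or restored replicate 3, with adjusted p from 0.0578 to 0.0679.

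ITGA5 (ENSG00000161638, chromosome 12, minus strand, 54395261 to 54419460) encodes the chain of the classical fibronectin receptor. It had 238, 282, 264 and 343 CPM in the parental libraries and 303, 208, 265 and 243 CPM in the restored-labelled ones, so the ranges overlapped, with parental replicate 4 above and restored replicate 2 below all libraries of the other group. On the log2 scale ITGA5 differed by -0.15 (SE 0.16, 95% confidence interval -0.49 to 0.20, edgeR adjusted p = 0.548), an interval that leaves out a rise as large as that of ITGB1. The remaining fibronectin and VCAM1 receptor chains among the members, ITGA4 and ITGA9, were at or near the floor. ITGA4 had 0 counts in all 8 libraries, and ITGA9 had at most 1 count in a parental and at most 3 counts in a restored-labelled library, where 3 counts equal 0.108 to 0.267 CPM depending on depth. Their difference was not detectable at this depth.

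**Figure D2:**
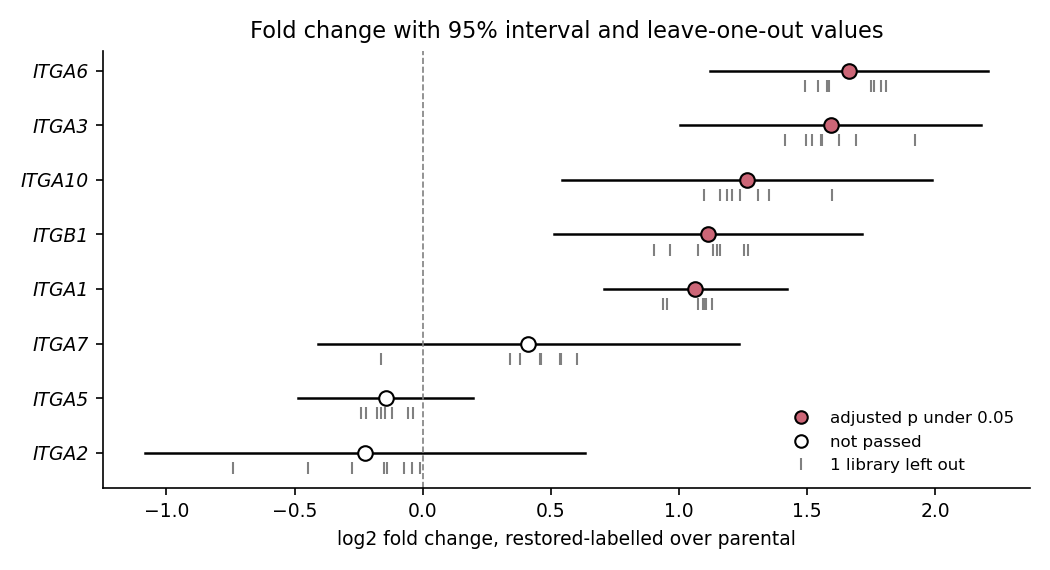
Log2 fold change of restored-labelled over parental libraries for the 8 tested genes, with the 95% confidence interval as a line, filled points for an adjusted p under 0.05, and grey ticks for the 8 values with 1 library left out. ITGA6, ITGA3, ITGA10, ITGB1 and ITGA1 lie above 1 in the full set, and the ticks of ITGA7 fall on both sides of 0.

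Levels of different genes were set side by side per kilobase of exon. In the parental libraries the order was ITGB1 (mean 70.3 CPM per kb), ITGA5 (37.2), ITGA6 (5.75), ITGA2 (3.81), ITGA1 (1.90), ITGA3 (0.921), ITGA7 (0.604) and ITGA10 (0.204). Of these neighbours, the ranges of ITGB1 and ITGA5 overlapped, although ITGB1 was higher within each of the 4 libraries, and so did those from ITGA6 down to ITGA7 pair by pair. In the restored-labelled libraries ITGB1 (152 CPM per kb) stood clear of ITGA5 (33.6), and ITGA6 (18.2) stood between ITGA5 and ITGA1 (3.97) with no overlap on either side. ITGA1, ITGA2 (3.25) and ITGA3 (2.76) overlapped in sequence, as did ITGA7 (0.797) and ITGA10 (0.488). ITGA2 was above ITGA3 in only 1 of these 4 libraries, restored replicate 1 (6.16 against 2.19 CPM per kb). By this length ITGA2 had the higher mean of the pair in the parental and ITGA1 in the restored-labelled group, with overlapping ranges in both. That order depends on the length used, since with coding length ITGA1 had the larger mean share of the summed alpha level in both groups (8.08% against 6.79% for ITGA2 in the parental and 13.6% against 4.52% in the restored-labelled libraries).

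As a share of the summed level of the 9 alpha chains, ITGA5 took 77.1%, 69.5%, 69.3% and 79.5% in the parental and 53.4%, 53.2%, 58.7% and 48.3% in the restored-labelled libraries. ITGA6 took 8.81%, 13.9%, 14.5% and 8.31% in the parental and 28.1%, 28.6%, 24.1% and 34.2% in the restored-labelled ones. Both shares were separated between the groups, in opposite directions. The laminin-binding chains together held 14.5% ± 2.94 (SD, n = 4) of the parental and 34.5% ± 3.70 (SD, n = 4) of the restored-labelled level. For the collagen-binding chains the shares were 11.6% ± 2.58 and 12.1% ± 1.16 (SD, n = 4 each) and overlapped. Both of these class shares were taken with exon length only. Within them ITGA1 was at 3.57% to 4.12% and 4.55% to 7.50%, which did not overlap. A share of 1 chain depends on all others, and on the exon length used. ITGA1, with its long annotated exons, moved most, to a mean of 8.08% and 13.6% with coding length, by which ITGA6 was at 8.95% and 22.5%. These shares are descriptions and were not tested.

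**Figure D3:**
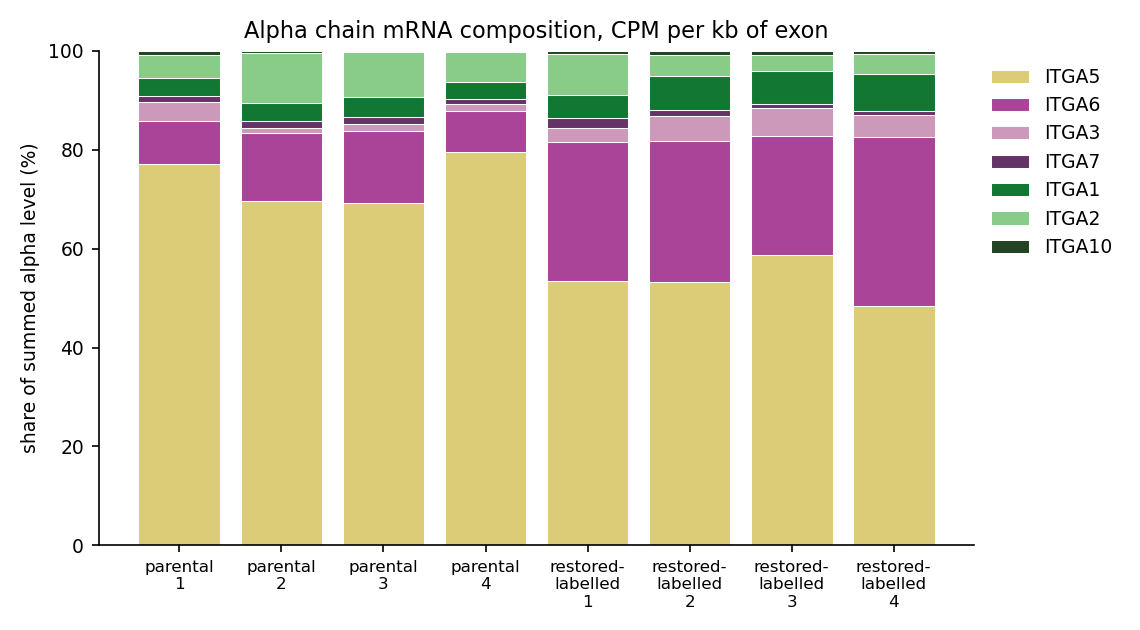
Stacked bars, 1 per library and starting at 0, of the share in percent of each alpha chain gene in the summed alpha level, in CPM per kb of exon. ITGA5 takes 69.3% to 79.5% of the parental and 48.3% to 58.7% of the restored-labelled bars, and ITGA4 and ITGA9 are too small to draw.

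The summed alpha level was 40.7, 53.5, 50.3 and 56.9 CPM per kb in the parental libraries and 74.9, 51.7, 59.5 and 66.3 CPM per kb in the restored-labelled ones. These ranges overlapped, unlike those of ITGB1. The level of ITGB1 over the summed alpha level was 0.917, 1.45, 1.80 and 1.33 in the parental and 2.19, 1.94, 2.47 and 2.98 in the restored-labelled libraries. All restored-labelled ratios were above all parental ones, with the nearest pair being parental replicate 3 and restored replicate 2. The means were 1.37 and 2.39 with exon length, 1.51 and 2.69 with the longest transcript, and 1.40 and 2.43 with coding length, each separated between the groups. ITGAV, another partner of ITGB1 that is not among the 9 alpha chains, had 19.2 to 48.8 CPM in the parental and 28.98 to 63.7 CPM in the restored-labelled libraries and did not pass the test (log2 fold change 0.31, edgeR adjusted p = 0.486).

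The genes around the members on their chromosomes were compared in windows of the 10 nearest tested genes on each side. The 20 neighbours of ITGA6 had a median log2 fold change of -0.11, with 0 called higher and 3 lower, and those of ITGB1 one of 0.12, with 3 higher and 1 lower. Around ITGA1 the median was 0.11, with 3 higher and 1 lower, and around ITGA2 0.16, with 4 higher and 1 lower. These windows share 17 genes. Around ITGA5, ITGA7 and ITGA10 the medians were 0.08, -0.16 and 0.01, with 3, 3 and 1 called higher and 0 lower in each. ITGA3 had the highest window median, 0.43, and 10 of its 20 neighbours were called higher and 0 lower. Among all tested genes 10.4% were called higher. Whether this window bears on the log2 fold change of ITGA3 itself, 1.59, was not tested.

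Matrix and cell-surface ligands of beta-1 integrins were followed through 30 genes, of which 16 could be tested. Of those 16, 6 rose and 2 fell, and their median log2 fold change was 0.74. Thus 8 of 16 were called, beside 19.2% of all tested genes. Without both libraries numbered 1, 8 rose and 5 fell (81.2% beside 32.3%), the added calls being COL6A2 and NID1 (higher) and THBS1, SPP1 and LAMB1 (lower). The laminin beta chain LAMB3 rose from 3.44 to 22.1 CPM in the parental to 28.9 to 64.9 CPM in the restored-labelled libraries (log2 fold change 2.36, SE 0.57, edgeR adjusted p = 0.0172), and LAMA5 and LAMB2, chains of basement membrane laminins, rose by log2 fold changes of 0.69 and 0.45 (adjusted p = 0.0321 and 0.0181). The calls of LAMA5 and LAMB2 were each lost without parental replicate 2 or 3 or restored replicate 3, and that of LAMB3 without parental replicate 2, with adjusted p up to 0.0809. LAMA3, the alpha chain that assembles with LAMB3, fell from 28.2, 25.2, 26.9 and 29.6 CPM to 14.4, 10.6, 9.61 and 14.4 CPM (log2 fold change -1.16, SE 0.17, edgeR adjusted p = 0.0013).

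Fibronectin (FN1), the ligand of the ITGA5 receptor, had 546, 1356, 1282 and 1052 CPM in the parental libraries and 626, 383, 384 and 434 CPM in the restored-labelled ones. It fell (log2 fold change -1.21, SE 0.27, edgeR adjusted p = 0.0121), although the libraries numbered 1 overlapped across the groups. Collagen chains COL5A2 and COL6A1 rose, by log2 fold changes of 3.08 (SE 0.42, adjusted p = 0.00087) and 1.47 (SE 0.38, adjusted p = 0.0226). The call of COL6A1, whose groups overlapped, was lost without parental replicate 2, 3 or 4, with adjusted p up to 0.0724. COL5A2 went from 2.14 to 3.38 CPM in the parental to 6.85 CPM in restored replicate 1 and 23.0 to 31.03 CPM in the other 3. Other chains of collagens V and VI did not follow alike. COL5A1 had at most 1 count and COL6A3 at most 5 counts in any library, and neither was tested. COL6A2 did not pass in the full set (log2 fold change 1.70, SE 0.84, edgeR adjusted p = 0.183). Vitronectin (VTN), a plasma and matrix protein bound mainly by integrins of the alpha-V chain, rose, from a mean of 429 ± 76.8 CPM to one of 1016 ± 136 CPM (SD, n = 4 libraries per group, log2 fold change 1.24, edgeR adjusted p = 0.00070).

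Proteins that activate integrins or tie them to actin formed a list of 32 genes, 29 of them tested, with 4 higher, 3 lower and a median log2 fold change of -0.12. The share called was 24.1%, beside 19.2% of all tested genes. Without both libraries numbered 1, 4 were higher and 9 lower, or 44.8% beside 32.3%. Talin (TLN1), which binds the beta tail and switches the receptor on, had 158, 167, 149 and 193 CPM in the parental and 435, 328, 341 and 333 CPM in the restored-labelled libraries (log2 fold change 1.11, edgeR adjusted p = 0.00057). The filamin gene FLNA, whose product competes with talin for the tail, rose by 0.94 on the log2 scale (adjusted p = 0.0132). Members of the tensin family, which bind the tail at mature adhesions, moved in opposite directions, with TNS2 at a log2 fold change of 1.48 (adjusted p = 0.0016) and TNS1 at -1.62 (adjusted p = 0.0285). The kinase-like adaptor ILK fell by 0.58 on the log2 scale, with means of 182 ± 13.2 and 122 ± 11.3 CPM (SD, n = 4 libraries per group, edgeR adjusted p = 0.0066), while its partner PARVA rose by 0.88, with means of 8.72 ± 1.04 and 16.1 ± 1.36 CPM (adjusted p = 0.0037). ZYX, an adaptor of adhesions under tension, fell by 0.61 on the log2 scale (adjusted p = 0.0156). The calls of ZYX and TNS1 were lost without restored replicate 3 or 4, and that of TNS1 also without parental replicate 2, with adjusted p up to 0.0890. The kindlin gene FERMT2, the focal adhesion kinase gene PTK2 and vinculin (VCL) did not pass, at log2 fold changes of -0.08, -0.03 and -0.26. Of them VCL fell without both libraries numbered 1, by 0.55 (edgeR adjusted p = 0.0037). The other added calls of that fit were also lower. They were FERMT1, another kindlin gene, the tensin TNS3, PXN, RAP1A and KANK1, with log2 fold changes from -1.58 to -0.46.

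Of 7 genes for proteins that hold integrins inactive or bind their tails, 5 were tested, 1 rose and 0 fell, and the median log2 fold change was -0.13. The share called, 20%, was close to the 19.2% of all tested genes. Without both libraries numbered 1, 1 was higher and 0 lower, or 20% beside 32.3%. DESeq2 and limma-voom each called 1 higher and 0 lower, and 1 had an unadjusted p under 0.05. DOK1, a phosphotyrosine adaptor that can displace talin, rose from 0.890, 0.948, 1.60 and 0.859 CPM to 4.45, 3.22, 4.29 and 4.14 CPM (log2 fold change 1.91, SE 0.29, edgeR adjusted p = 0.0014). ITGB1BP1, which encodes a binder of the beta-1 tail, was at 54.8 to 68.1 CPM and 54.6 to 64.5 CPM (log2 fold change -0.01, adjusted p = 0.979).

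Uptake and recycling of the receptors was followed through 30 genes, 27 of them tested, with 3 higher, 2 lower and a median log2 fold change of 0.07. The share called, 18.5%, was close to the 19.2% of all tested genes. Without both libraries numbered 1, 5 were higher and 2 lower, or 25.9% against 32.3% of all genes. DAB2, a clathrin adaptor that carries beta-1 integrins into coated pits, had 31.5, 19.02, 24.3 and 14.7 CPM in the parental and 41.4, 67.6, 64.1 and 68.6 CPM in the restored-labelled libraries. The groups did not overlap, with restored replicate 1 low in its group, and the log2 fold change was 1.43 (SE 0.24, edgeR adjusted p = 0.0027). The clathrin chain genes CLTC and CLTA rose by 1.03 and 0.66 on the log2 scale (adjusted p = 0.0012 and 0.0088). The caveolin gene CAV1 fell by 2.85 and the late endosome gene RAB7A by 0.40 on the same scale (adjusted p = 0.0014 and 0.0263). The call of RAB7A was lost without parental replicate 2 or 3 or restored replicate 2, 3 or 4, with adjusted p up to 0.0791. Recycling genes NUMB, SNX17, RAB21, ARF6 and VPS35 did not pass, with log2 fold changes from -0.20 to 0.19.

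Of 10 tetraspanins and other surface partners, all tested, 1 rose and 0 fell, with a median log2 fold change of -0.02. The share called was 10%, beside 19.2% of all tested genes. Without both libraries numbered 1, 3 were higher and 2 lower (5 of 10 called, beside 32.3% of all genes). By DESeq2 2 were higher and 1 lower, by limma-voom 1 was higher and 0 lower, and 3 had an unadjusted p under 0.05. CD81, a tetraspanin abundant on hepatocytes, rose, with means of 106 ± 4.59 and 182 ± 28.97 CPM (SD, n = 4 libraries per group, log2 fold change 0.78, edgeR adjusted p = 0.0029). CD151, the close partner of laminin-binding integrins, had separated groups, at 334 to 397 CPM and 243 to 312 CPM, and an adjusted p of 0.0553 (log2 fold change -0.41, SE 0.13). CD9 did not pass, at a log2 fold change of 1.43 (SE 0.56, adjusted p = 0.0997), with 4.81 and 15.4 CPM in the libraries numbered 1. Without restored replicate 1 alone CD9 was at 0.56 (edgeR adjusted p = 0.339), and without parental replicate 1 alone at 1.95 (adjusted p = 0.0253). Without both CD9 was at 1.07 (adjusted p = 0.0062). That fit was added after seeing the data and leaves out the libraries that stood apart on CD9 itself. In the same fit CD151 fell by 0.40 (adjusted p = 0.0395). None of the 6 tested among 16 other integrin subunits passed in edgeR, DESeq2 or limma-voom, and 0 of them had an unadjusted p under 0.05. Of these 6, 1, ITGB4, fell without both libraries numbered 1, in the fit added after seeing the data. Among them the leukocyte integrin chains ITGAL, ITGAE and ITGAM had log2 fold changes of 0.27, -0.22 and 0.73. Side by side, the members and the other tested integrin genes stood at 5 of 8 against 0 of 6 called. Among all tested genes the share called was 19.2%. The other 6 include ITGAV, itself a partner of ITGB1, and the difference was not tested.

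**Figure D4:**
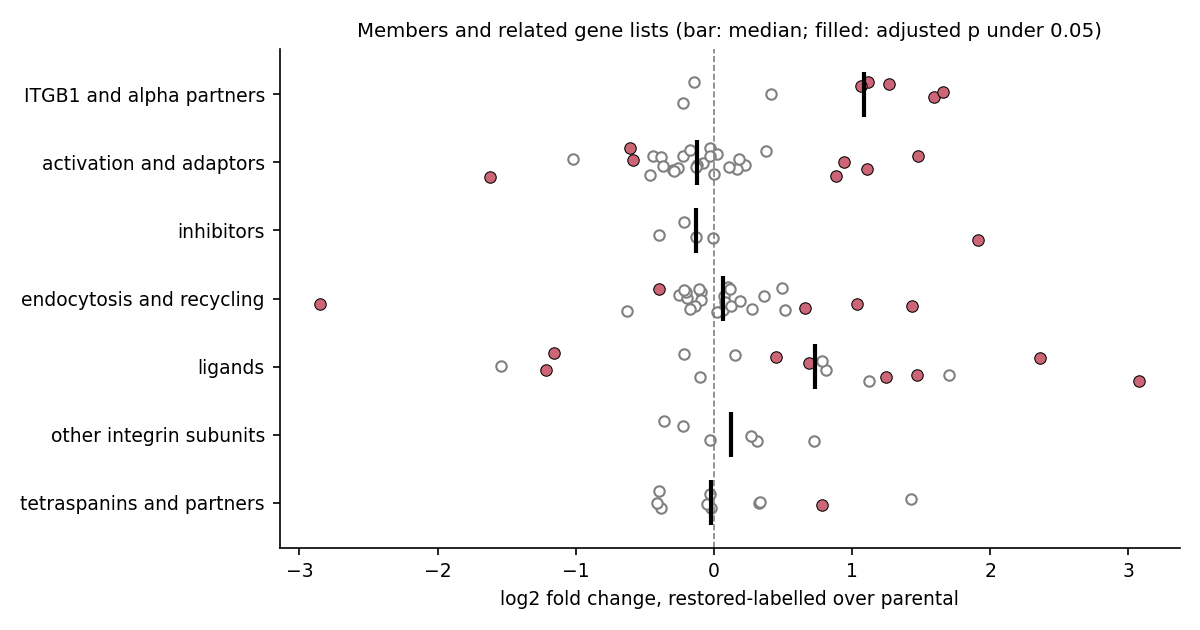
Log2 fold change of every tested gene among the members and in 6 related lists, with a black bar at each median, filled points for an adjusted p under 0.05 and vertical jitter for legibility only. The median of the members is at 1.09, that of the ligands at 0.74, and those of the other 5 lists between -0.13 and 0.12.

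The genes whose log2 CPM followed each rising member most closely over the 8 libraries, both groups pooled, were named by Pearson's r as a description. For ITGB1 they included UBR1 (r = 0.994), a ubiquitin ligase gene, and SETD9 (0.994). For ITGA6 they were SAMD9 (0.988), UTP6 (0.987) and TMEM267 (0.987), for ITGA1 YTHDC2 (0.992), GOLPH3L (0.991) and ZNF527 (0.991), for ITGA3 ABCA8 (0.992), PARM1 (0.987) and ZNF204P (0.985), and for ITGA10 SOCS7 (0.986) and FA2H (0.981). No member was among the 3 genes closest to another member. Each r is among the highest of 14289 genes and is taken over groups that were themselves separated for the member.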

How the data were processed

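RNA was sequenced from 8 libraries, 4 parental and 4 Axin1+, grouped and numbered by their titles. The authors deposited whole-number counts per gene, without normalization. Per the submitters' processing notes, the authors used bcl2fastq, fastp 0.23.1 and STAR 2.7.4 with GRCh38, while the counting program, annotation and use of strand are not given in the sources used here. All 8 columns were matched to samples by the labels, and 0 belonged to none.

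Here edgeR 4.0.16 (R 4.3.3) was run on the counts, with filterByExpr (minimum count 10, minimum total 15), TMM factors from 0.897 to 1.06 and the two-sided quasi-likelihood test without covariates. Benjamini-Hochberg adjustment covered all 14289 genes, with a threshold of 0.05. The SE of a log2 fold change is its size divided by the root of the test's F value. Exon, transcript and coding lengths, positions and overlaps come from GENCODE 29 on GRCh38, which held 57943 of the 58206 identifiers, and its version may differ from the authors' annotation.

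The members, the lists and the tests were chosen with earlier results of these data known. Named genes are the 10 members, the 3 genes of each list with the smallest p-value, and the 3 genes most like each called member, of which some are not reported here. Other list genes (FN1, LAMB3, LAMA5, LAMB2, COL6A1, FLNA, TNS1, ILK, ZYX, FERMT2, PTK2, VCL, ITGB1BP1, CLTA, RAB7A and the recycling genes, ITGB4, ITGAV, COL6A2, NID1, THBS1, SPP1, LAMB1) were picked out after their values were seen. So were COL5A1, COL6A3, FERMT1, PXN, TNS3, RAP1A and KANK1.

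Alternatives were total counts, upper-quartile or DESeq2 size factors as scaling, 2 other filters, DESeq2 1.42.0, limma-voom (limma 3.58.1), the replicate block, a threshold of 0.01 and leaving out each library. Leaving out both libraries numbered 1, and thinning to 11232951 counts, were added after seeing the data. The tests were checked on simulated counts.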

Additional observations from a re-analysis of the deposited data

Results flagged for a closer look

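Single libraries lay far from the other 3 of their group for several named genes, in that the gap to the nearest value took most of the group's range. Of 52 groups of 4 examined, over 26 genes, 9 held such a library, where chance gives about 1 group in 20, or 2.6. The genes are not independent. Of the 9 values, 8 came from libraries numbered 1. In parental replicate 1, ITGA1 was low, at 27.0 CPM against 37.8 to 38.5 CPM in the others, TNS2 was high, at 13.4 CPM against 7.18 to 7.84 CPM, and CD9 was high, at 4.81 CPM against 1.65 to 1.83 CPM. In restored replicate 1, ITGA7 reached 9.97 CPM against 3.01 to 3.70 CPM, TLN1 435 CPM against 328 to 341 CPM, TNS2 32.3 CPM against 22.3 to 23.6 CPM and CD9 15.4 CPM against 3.35 to 4.13 CPM, while DAB2 was low at 41.4 CPM against 64.1 to 68.6 CPM. In parental replicate 3, DOK1 was at 1.60 CPM against 0.859 to 0.948 CPM. Why these libraries stood apart was not tested.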

How the results depend on the processing

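ITGA6, ITGA3 and ITGA1 stayed past their threshold in all 19 alternatives, with log2 fold changes from 1.42 to 1.81, 1.41 to 2.02 and 0.94 to 1.14. ITGB1 passed in 17 of 19 and failed at an adjusted p under 0.01 (log2 fold change 1.11) and without restored replicate 4 (0.96, adjusted p = 0.0610). With libraries left out it ranged from 0.87, without both numbered 1, to 1.27, and with 1 left out from 0.90. The replicate numbers pair nothing in the labels, and same-numbered deviations from the group means correlated at -0.0629, 0.00667, -0.0325 and 0.227. The replicate block gave 1.14 for ITGB1 and changed no call among the members, and 2149 genes were called with it against 2738. ITGA10 lost its call in 5 of 19 alternatives, and ITGA5 passed in none. ITGA7 turned to -0.16 without restored replicate 1 and -0.20 without both libraries numbered 1, in a range up to 0.60 with 1 left out. Without both, SHARPIN turned to 0.021 from -0.21 (as low as -0.32 with 1 left out) and ITGA2 passed at -0.96. The number of genes called was 964 at an adjusted p under 0.01. With 1 library left out it lay between 1394, when restored replicate 4 was missing, and 3523, when parental replicate 1 was; it was 1508 without parental replicate 2, 1531 without restored replicate 3 and 4623 without both numbered 1. Of the related genes, 22 were called, 13 at the stricter threshold, 40 without both libraries numbered 1, and 16 to 31 with 1 library left out. The 4 called alpha chains were 3 to 5 throughout. The cause of these shifts was not tested. ITGA4 and ITGA9 had too few counts to be tested under the main filter.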
